A study of Mus musculus with 15 samples.

Results

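Transcripts of 8 genes that are classically expressed by hepatocytes (Alb, Ttr, Ahsg, Trf, Apoa1, Apoa2, Serpina1a and Fgb) were followed in macrophages sorted from mouse liver. The genes were chosen by name, and their probes were found through the RefSeq accessions in the scanner files. They are 8 of the 20145 genes that the arrays name and 8 of the 13390 genes tested, with 11 probes in all.

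The macrophages came from male mice on Agilent 1-colour arrays, 5 arrays in each of 3 groups. The wildtype group was made of CD11c-negative cells from wildtype mice on standard diet, for which the labels state no age. The other 2 groups were CD11c-negative and CD11c-positive cells from mice lacking the melanocortin 4 receptor (MC4R-KO), which received Western diet for 20 weeks from 8 weeks of age and had nonalcoholic steatohepatitis (NASH). All cells were released from the liver with collagenases and gated as high in F4/80, a macrophage surface protein, and the RNA of each sample was a pool from 7 to 9 mice. Genotype, diet and disease changed together between the wildtype and NASH mice and cannot be told apart. Nothing in the labels says that the 5 samples of a group were separate pools, so the p-values measure only the spread among these arrays, part of which may be technical.

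Hepatocytes make most of the proteins of blood plasma, and the mRNAs of these proteins are among the most abundant in the liver. Albumin, transthyretin, fetuin-A and transferrin bind and carry ligands, apolipoproteins A-I and A-II form high-density lipoprotein, alpha-1-antitrypsin inhibits neutrophil elastase, and fibrinogen forms the clot. Macrophages engulf dying cells and debris, and liver cell suspensions also contain hepatocyte fragments and free RNA. The source of these transcripts in the sorted samples was not tested. In bulk RNA, fewer cells of a type and less RNA per cell cannot be told apart.

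C/EBP proteins are transcription factors of hepatocytes and of myeloid cells. The 250 bases before the annotated start were taken from RefSeq (GRCm38.p6) for 6 of the 8 genes, in 7 windows. Of these windows 4 are shown. They hold the genes of these 6 that fell most from wildtype to CD11c-negative NASH cells, and Apoa1. The change of Apoa1 did not pass that test. Capitals mark the C/EBP motif TTGCNNAA, searched on both strands, where N is any base.
Alb, chr5:90460620-90460869, plus strand: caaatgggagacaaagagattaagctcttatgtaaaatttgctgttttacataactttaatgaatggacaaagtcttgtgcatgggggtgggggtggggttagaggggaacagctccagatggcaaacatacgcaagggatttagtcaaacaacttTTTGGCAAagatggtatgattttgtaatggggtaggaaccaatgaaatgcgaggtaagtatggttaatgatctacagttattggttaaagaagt
Serpina1a, chr12:103863620-103863869, minus strand: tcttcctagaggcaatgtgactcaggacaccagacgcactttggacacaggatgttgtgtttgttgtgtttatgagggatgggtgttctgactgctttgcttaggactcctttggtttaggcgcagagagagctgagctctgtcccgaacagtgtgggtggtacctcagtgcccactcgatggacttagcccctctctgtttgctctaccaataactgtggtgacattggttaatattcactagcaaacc
Fgb, chr3:83049864-83050113, minus strand: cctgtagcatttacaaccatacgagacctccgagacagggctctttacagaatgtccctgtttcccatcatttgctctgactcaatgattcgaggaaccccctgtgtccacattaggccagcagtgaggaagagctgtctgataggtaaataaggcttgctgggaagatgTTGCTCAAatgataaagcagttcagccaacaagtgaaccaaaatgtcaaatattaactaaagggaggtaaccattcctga
Apoa1, chr9:46228380-46228629, plus strand: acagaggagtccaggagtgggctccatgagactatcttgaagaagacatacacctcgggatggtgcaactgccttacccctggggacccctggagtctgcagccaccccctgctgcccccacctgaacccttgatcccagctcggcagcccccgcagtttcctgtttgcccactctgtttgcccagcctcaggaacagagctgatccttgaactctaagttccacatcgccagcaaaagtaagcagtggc
The motif began 94 bases before the start of Alb and 80 before that of Fgb, and the Serpina1a and Apoa1 windows hold no match. It was present in 4 of the 7 windows and in 9.56% of the 32851 promoter windows of the same length. TATAAA was present in 1 of the 7 windows against 12.4% of all windows. Matches of both motifs overlapped in 0 of the 7 windows. These are matches of letters and no measure of binding.

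All 11 probes were well above background on all 15 arrays. Levels are given as log2 of the signal relative to the 75th percentile of the array, so a negative level lies under that percentile, and changes are differences of these values. Levels of different probes are not comparable with each other. Macrophage transcripts were read on the same arrays. Adgre1, which encodes F4/80, Csf1r, C1qa, Cd5l and Clec4f were well above background on all 15 arrays. The 11 hepatocyte probes were too, so this is no check of the sort. Itgax, which encodes CD11c, had mean log2 levels of 4.21 in wildtype, 5.93 in NASH CD11c-negative and 7.29 in NASH CD11c-positive cells.

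**Figure D1:**
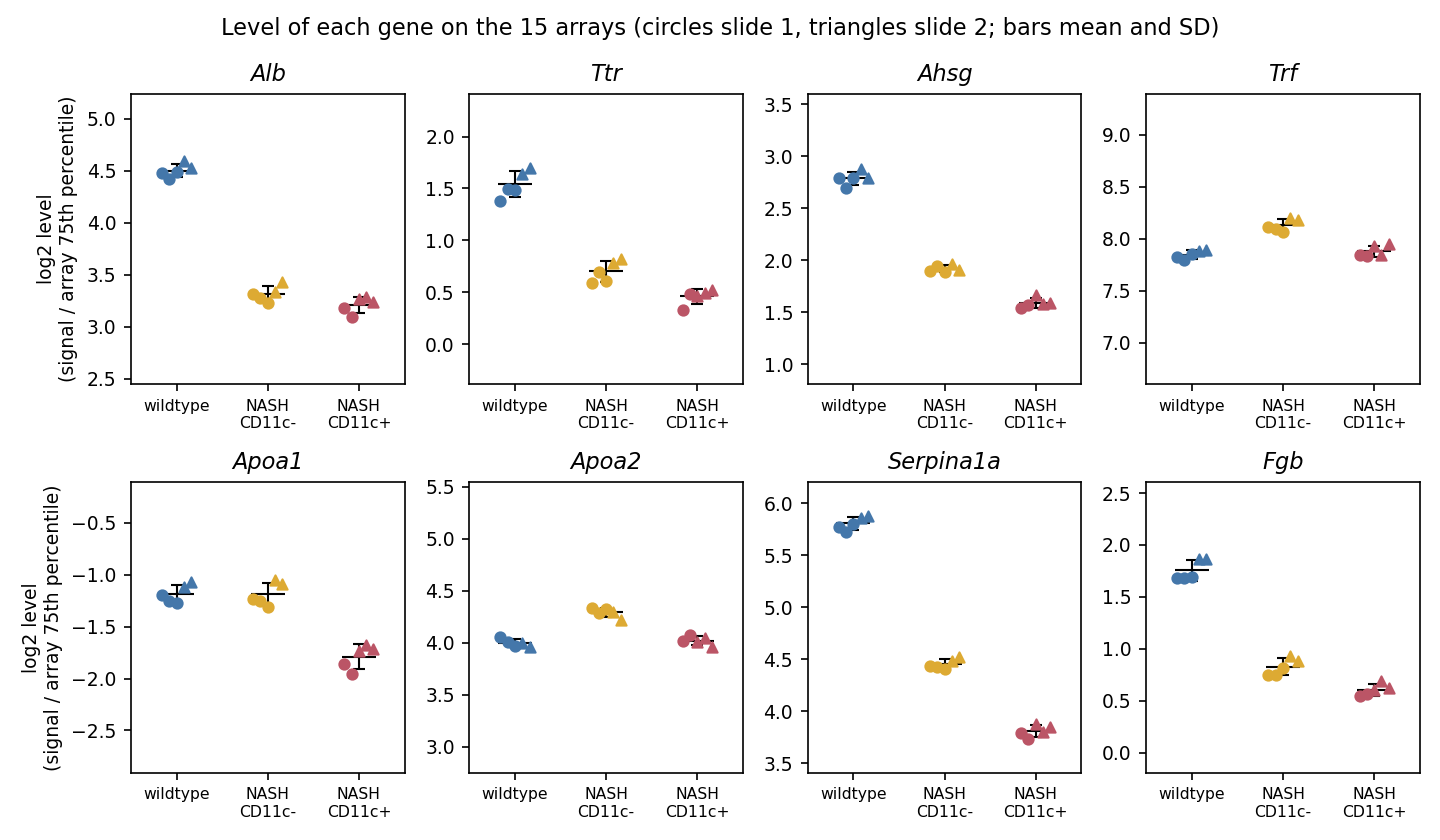
Log2 level of each of the 8 genes (y axis, relative to the 75th percentile of the array, 2.8 log2 units in every panel) on the 15 arrays by group (x axis), with circles for slide 1, triangles for slide 2 and bars for mean and SD of 5 arrays. Alb, Ttr, Ahsg, Serpina1a and Fgb are highest in wildtype cells, Apoa1 is lowest in CD11c-positive cells, and Trf and Apoa2 peak in CD11c-negative NASH cells by under 0.3 log2 units, a rise that is turned for Trf (-0.17) and is 0.00 for Apoa2 under quantile normalization.

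Between the NASH CD11c-negative and the wildtype cells, 5 of the 8 transcripts fell (Alb, Ttr, Ahsg, Serpina1a and Fgb), by 0.84 to 1.35 on the log2 scale or 1.79- to 2.55-fold. Trf and Apoa2 rose by 0.28 and 0.29, but under quantile normalization the change of Trf was turned to -0.17 and that of Apoa2 was 0.00. Apoa1 did not pass the test. Calls are by limma with a Benjamini-Hochberg adjusted p under 0.05 over all genes tested. At that threshold 76.8% of all genes were called in this comparison, 48.3% higher and 28.5% lower, so being called is common among all genes here. Groups did not overlap for 7 of the 8, against 64.1% of all genes. The median change of all genes was 0.13 and that of the 8 transcripts was -0.85.

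Among the carriers, Alb encodes albumin, the main protein of plasma. Its log2 level on the 5 wildtype arrays was 4.48, 4.42, 4.49, 4.59 and 4.53. The NASH CD11c-negative arrays read 3.31, 3.27, 3.23, 3.33 and 3.43, and the CD11c-positive arrays 3.18, 3.097, 3.27, 3.28 and 3.24. Every NASH array lay below every wildtype array, whereas both NASH groups overlapped. The change from wildtype to CD11c-negative NASH cells was -1.19 ± 0.045 (SE, n = 5 per group, limma adjusted p = 6.9e-12), which is 2.28-fold. From CD11c-negative to CD11c-positive cells it was -0.10 ± 0.045 and did not pass the test (adjusted p = 0.0752), although it passed with slide as a block (-0.12, adjusted p = 0.00142) and was -0.0082 with normexp background correction (adjusted p = 0.911).

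Ttr encodes transthyretin, the carrier of thyroxine and of retinol-binding protein. Its levels ran from 1.38 to 1.69 in wildtype, from 0.59 to 0.82 in CD11c-negative NASH and from 0.33 to 0.52 in CD11c-positive NASH cells, without overlap between groups. It fell by 0.84 ± 0.063 from wildtype to CD11c-negative NASH cells (limma adjusted p = 1.5e-08). The further fall to CD11c-positive cells was 0.24 ± 0.063 (adjusted p = 0.0054), and with normexp background correction this change was -0.19 and did not pass (adjusted p = 0.0531).

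Ahsg encodes fetuin-A, a carrier of calcium phosphate that inhibits mineralization. Levels ranged from 2.69 to 2.87, from 1.89 to 1.96 and from 1.54 to 1.66 in the 3 groups in the same order, and no groups overlapped. Ahsg fell by 0.87 ± 0.033 in CD11c-negative NASH cells (limma adjusted p = 7.7e-12) and by a further 0.33 ± 0.033 in CD11c-positive cells (adjusted p = 1.2e-06).

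Trf encodes transferrin, the plasma iron carrier, and was measured by 2 probes. The brighter probe read 7.82, 7.79, 7.86, 7.88 and 7.89 in wildtype cells. It read 8.12, 8.09, 8.07, 8.20 and 8.18 in CD11c-negative and 7.84, 7.84, 7.93, 7.85 and 7.95 in CD11c-positive NASH cells. The CD11c-negative NASH arrays all lay above the other 10 arrays, and the wildtype and CD11c-positive arrays overlapped. The change from wildtype to CD11c-negative NASH cells was 0.28 ± 0.034 (limma adjusted p = 2.6e-06) and was turned to -0.17 under quantile normalization. The change to CD11c-positive cells was -0.25 ± 0.034 from CD11c-negative (adjusted p = 2.4e-05; -0.094 under quantile normalization) and 0.03 ± 0.034 from wildtype, which did not pass (adjusted p = 0.400). The second probe gave 0.22, -0.17 and 0.05 in these 3 comparisons, with the same calls.

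Of the apolipoproteins, Apoa1 encodes the main protein of high-density lipoprotein. Wildtype arrays read -1.19, -1.25, -1.27, -1.12 and -1.07, and CD11c-negative NASH arrays -1.23, -1.25, -1.31, -1.06 and -1.09. CD11c-positive arrays read -1.86, -1.96, -1.73, -1.67 and -1.72. The first 2 groups overlapped over nearly their whole range, and every CD11c-positive array lay below both. The change from wildtype to CD11c-negative NASH cells was -0.01 ± 0.064 (limma adjusted p = 0.943; 0.03 under quantile normalization), and that from CD11c-negative to CD11c-positive cells was -0.60 ± 0.064 (adjusted p = 2.4e-06), a 1.52-fold fall.

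Apoa2 encodes the second protein of high-density lipoprotein. The probe with the higher signal read 4.05, 4.01, 3.97, 3.99 and 3.96 in wildtype cells. The values were 4.33, 4.29, 4.32, 4.30 and 4.22 in CD11c-negative and 4.02, 4.07, 4.01, 4.05 and 3.96 in CD11c-positive NASH cells. As for Trf, the CD11c-negative NASH arrays stood above the rest and the other groups overlapped. The change from wildtype was 0.29 ± 0.030 in CD11c-negative NASH cells (limma adjusted p = 4.1e-07; 0.00 under quantile normalization) and 0.02 ± 0.030 in CD11c-positive cells (adjusted p = 0.499). From CD11c-negative to CD11c-positive cells Apoa2 fell by 0.27 ± 0.030 (adjusted p = 3.0e-06). The second probe disagreed on CD11c-positive against wildtype cells: its mean was 2.54 in wildtype, 2.73 in CD11c-negative and 2.22 in CD11c-positive NASH cells, a called change of -0.32 ± 0.033 (adjusted p = 6.7e-07) where the brighter probe did not pass.

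Serpina1a encodes an alpha-1-antitrypsin, and among the 8 transcripts its fall was the largest by value in all 3 comparisons. Wildtype arrays read 5.77, 5.73, 5.80, 5.86 and 5.88. CD11c-negative NASH arrays read 4.44, 4.43, 4.404, 4.48 and 4.53, and CD11c-positive arrays 3.79, 3.74, 3.88, 3.80 and 3.85. The groups formed 3 steps with no overlap. Serpina1a fell by 1.35 ± 0.036 in the first step (limma adjusted p = 1.5e-13) and by 0.64 ± 0.036 in the second (adjusted p = 2.7e-09), which made CD11c-positive cells 3.99-fold lower than wildtype. The second probe fell by 1.48 and 0.58. The Serpina1 genes are near-identical copies and a probe may hybridise with several of them, so the value is uncertain as that of a single gene. Serpina1c, Serpina1d and Serpina1e, named by their own probes, changed by -1.38, -1.45 and -1.58 in the first comparison and by -0.64, -0.50 and -0.61 in the second, all called.

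Fgb encodes the fibrinogen beta chain. It ranged from 1.68 to 1.87 in wildtype, from 0.75 to 0.93 in CD11c-negative NASH and from 0.54 to 0.69 in CD11c-positive NASH cells, without overlap. It fell by 0.93 ± 0.051 (limma adjusted p = 4.2e-10) and then by 0.22 ± 0.051 (adjusted p = 0.0021). Fgg, the gamma chain, fell by 0.47 and 0.28 in the same comparisons, and the change of Fga, the alpha chain, passed in neither (-0.03, adjusted p = 0.908, and -0.48, adjusted p = 0.0824).

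In CD11c-positive against CD11c-negative NASH cells, 7 of the 8 transcripts fell, by 0.22 to 0.64, while Alb did not pass the adjusted threshold (unadjusted p = 0.0427). Of all genes 53.1% were called in this comparison, 29.9% higher and 23.2% lower, and the median change was 0.01 for all genes and -0.26 for the 8 transcripts. Limma called 0 of the 8 higher, and at an unadjusted p under 0.05 the number was also 0. No overlap between groups was seen for 7 of the 8, against 39.5% of all genes.

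In CD11c-positive against wildtype cells, 6 of the 8 fell, by 0.61 to 2.00, and Apoa2 and Trf did not pass (changes of 0.02 and 0.03, turned to -0.25 and -0.26 under quantile normalization). Of all genes 77.6% were called here, 51.4% higher and 26.3% lower. The groups did not overlap for 6 of the 8, against 69.3% of all genes. The median change was 0.16 for all genes and -1.11 for the 8. This comparison shares its arrays with the other 2 and is no separate evidence.

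**Figure D2:**
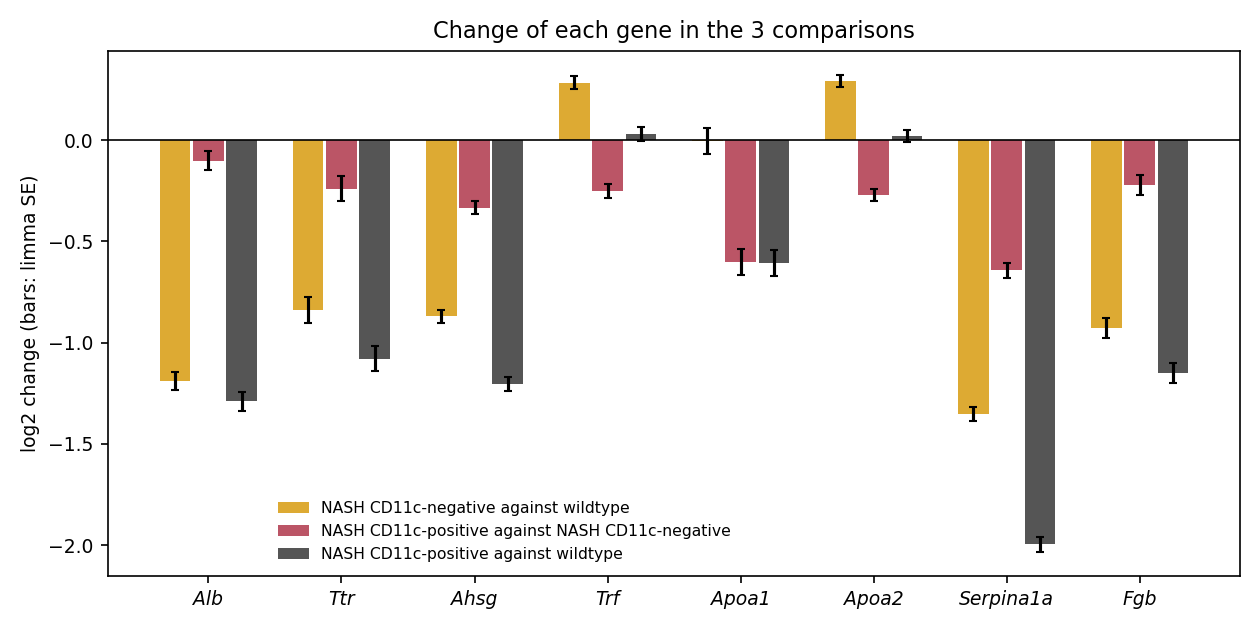
Log2 change of each gene (bars, with the limma standard error) in the 3 comparisons, 5 arrays per group. Serpina1a reaches -2.00 in CD11c-positive against wildtype cells, Apoa1 is at -0.01 between CD11c-negative NASH and wildtype cells, and Trf and Apoa2 are the 2 genes above 0 there, at 0.28 and 0.29 (-0.17 and 0.00 under quantile normalization).

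The signals of the transcripts did not move in a fixed ratio to that of Alb. For each array the level of a gene minus that of Alb was taken, and the difference of its group means was tested by an exact 2-sided permutation test over arrays (252 arrangements, smallest possible p = 0.00794), adjusted over 21 tests that all share the Alb values. Of the 21 differences, 20 had an adjusted p under 0.05. The test was not run on other genes, so no share of all genes can be set beside this count. The differences of CD11c-positive against wildtype cells follow from those of the other comparisons. From wildtype to CD11c-negative NASH cells Trf and Apoa2 changed by 1.47 and 1.48 more than Alb on the log2 scale, Apoa1 by 1.18, Ttr by 0.35, Ahsg by 0.32 and Fgb by 0.26, and Serpina1a by -0.16 (exact permutation test, adjusted p = 0.0111 for each). These 7 values have 5 arrays in each group and do not depend on a scaling factor common to an array. They do depend on the probe. In this comparison the 2 Serpina1a probes changed by -1.35 and -1.48. From CD11c-negative to CD11c-positive cells the 2 Apoa2 probes changed by -0.27 and -0.50. Small differences between genes therefore cannot be told apart from differences between probes. From CD11c-negative to CD11c-positive cells the differences ran from -0.54 for Serpina1a and -0.50 for Apoa1 to -0.12 for Fgb, and that of Apoa2, -0.17, was the exception that did not reach the threshold (exact permutation test, adjusted p = 0.0556).

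The arrays lay on 2 slides that each held all 3 groups. On slide 1 between 0 and 2 of the 8 genes were above the mean of their group on any array, and on slide 2 between 5 and 8. Slide 2 read higher than slide 1 by 0.03 to 0.21 in every group for the 7 genes other than Apoa2, which read lower by 0.03 to 0.06. The part of the slide in the levels was not tested, and the changes were alike within each. On slide 1 and slide 2 the change from wildtype to CD11c-negative NASH cells was -1.19 and -1.18 for Alb, -1.35 and -1.36 for Serpina1a, -0.02 and 0.02 for Apoa1, 0.30 and 0.28 for Apoa2, and 0.27 and 0.31 for Trf. The Alb change from CD11c-negative to CD11c-positive cells was -0.13 and -0.12, called on slide 1 (adjusted p = 0.0400) and not on slide 2 (adjusted p = 0.0670).

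**Figure D3:**
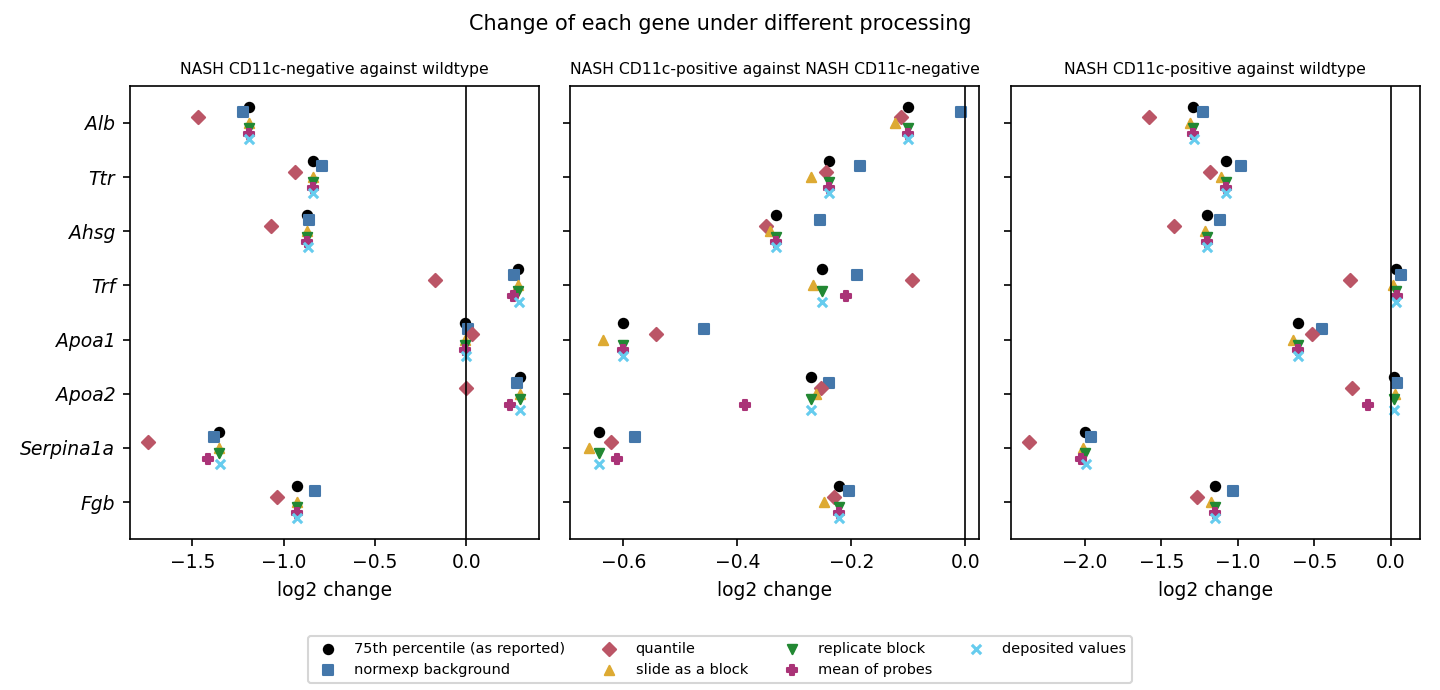
Log2 change of each gene (x axis, a scale of its own in each panel) in the 3 comparisons under the reported processing and 6 alternatives, one marker each. Most markers of a gene lie close together, and quantile normalization moves Trf to -0.17 and Apoa2 to 0.00 in the left panel and both below 0 in the right panel.

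Of 120 genes on 10 hepatocyte lists, which include the 8, 119 have a named probe and 100 were tested. In CD11c-negative NASH against wildtype cells 53 fell, 26 rose and 21 missed the threshold, and of all genes 28.5% fell and 48.3% rose. The median change was -0.22, against 0.13 for all genes. From CD11c-negative to CD11c-positive cells 65 fell, 4 rose and 31 missed the threshold, beside 23.2% and 29.9% of all genes. The median was -0.31 with quartiles of -0.48 and -0.16, against 0.01 with quartiles of -0.15 and 0.18 for all genes. In CD11c-positive against wildtype cells 68 fell and 17 rose (median -0.58), beside 26.3% and 51.4% of all genes. The counts of the single lists stand beside the same shares, 76.8% of all genes called in the first comparison and 53.1% in the second. Without the 8 genes the counts were 48 lower and 24 higher of 92 in the first, 58 and 4 in the second and 62 and 17 in the last comparison. Leaving out 10 tested genes that myeloid or other cells are also known to make gave 49 lower and 20 higher of 90, 59 and 2, and 65 and 11.

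The lists are given by the role of the product, first for CD11c-negative NASH against wildtype cells. Of 22 intracellular liver enzymes 15 fell and 3 rose (median -0.76; -0.42 with normexp). Pck1, the gluconeogenic phosphoenolpyruvate carboxykinase, changed by -2.59 ± 0.21, Hgd, of tyrosine breakdown, by -2.40 ± 0.12, and Gulo, of ascorbate synthesis, by 0.71 ± 0.21, a call lost under 1 alternative. With normexp background correction Pck1 was at -1.22, Hgd at -1.32 and Gulo at 0.34. Of 11 cytochrome P450 and bile acid genes 8 fell and 2 rose (median -0.39; -0.23 with normexp), with Cyp2f2, a cytochrome P450 of periportal hepatocytes, at -2.89 ± 0.097 and Cyp4a10, a fatty acid hydroxylase, at 0.65 ± 0.16. Abcb11, the bile salt export pump, was not well above background on any CD11c-negative NASH array and was at least 1.44-fold lower there. That bound is the wildtype mean over the lowest signal called above background on each dim array, and it holds for this processing only. Of 15 protease inhibitors 11 fell and 1 rose (median -0.28). In every comparison those that fell include Serpina1a, Serpina1c, Serpina1d and Serpina1e, whose probes may share signal and may not count as separate genes.

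Other secreted products went both ways in that comparison. Of 14 carriers and other plasma proteins 7 fell and 4 rose, the 4 including Trf, which turns under quantile normalization. Hp, encoding the haemoglobin-binding haptoglobin, which myeloid cells also make, rose by 1.73 ± 0.041, and Orm1, the acute phase protein orosomucoid, by 1.505 ± 0.068 (0.95 with normexp). Of 9 apolipoproteins 3 fell and 4 rose. The 4 include Apoa2, at 0.00 under quantile normalization, and Apob, at 0.27, a call lost under 2 alternatives. Apom fell by 1.10 ± 0.11 (-0.41 with normexp), and Apoa4, which no wildtype array showed well above background, was at least 2.85-fold higher by the same bound, with a change of 0.77 on the log2 scale under normexp. Of 9 clotting factors 4 fell and 2 rose, with Fgb at -0.93 and F9, coagulation factor IX, at 1.05 ± 0.15. Of 6 acute phase genes 3 rose and 1 fell. Lcn2, lipocalin 2, which neutrophils and macrophages also make, rose by 4.49 ± 0.044, Saa2, serum amyloid A2, rose by 2.38 ± 0.082, and Lbp, the lipopolysaccharide-binding protein, fell by 0.57 ± 0.050.

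From CD11c-negative to CD11c-positive NASH cells most tested genes of the secreted groups fell. Of the carriers 13 of 14 fell (median -0.33), led by Hp at -1.01 and Orm1 at -0.96, with Alb the gene that did not pass. Of the protease inhibitors 12 of 15 fell (median -0.40), Serpina3k most, by 0.74 ± 0.036. Of the 12, Itih1 (-0.38) lost its call under 8 alternatives, and Itih4 was at 0.03 when its probes were averaged. Of the apolipoproteins 6 of 9 fell (median -0.31), led by Apob, the protein of very low-density lipoprotein, at -0.63 ± 0.090 (-0.25 as the mean of its probes). Of the clotting factors 6 of 9 fell (median -0.28), with F5, factor V, at -0.70 ± 0.098. Among acute phase genes 4 fell and 2 rose. Of the 4, Crp (-0.51) lost its call under 10 alternatives. Lcn2 fell by 1.91 ± 0.044 and Hamp, the iron hormone hepcidin, by 0.84 ± 0.16 (-0.53 with normexp), whereas Saa2 rose by 0.40 ± 0.082.

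Of the intracellular enzymes 11 of 22 fell in that comparison and 2 rose (median -0.26). Ass1, of the urea cycle and also induced in macrophages, rose by 0.76 ± 0.033. Of the P450 and bile acid genes 4 of 11 fell (median -0.14; -0.026 under quantile normalization), Cyp3a11 by 0.38 ± 0.057. Of these 4, Slc10a1, the bile acid uptake carrier, was at 0.11 under quantile normalization. Slc27a5 (-0.21) and Cyp2e1 (-0.28), also among the 4, lost their calls under 7 and 5 alternatives.

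Regulators of hepatocyte genes were measured less completely. Of 14 receptors and transcription factors 7 were tested. Foxa1, Foxa2, Nr1i2, Nr0b2 and Onecut1 were well above background on 0 of 15 arrays and Foxa3 on 1. Hnf4a, a nuclear receptor that drives many hepatocyte genes, fell by 0.53 ± 0.059 from wildtype to CD11c-negative NASH cells (-0.33 with normexp) and by 0.40 ± 0.059 to CD11c-positive cells. Asgr1, the hepatocyte asialoglycoprotein receptor, fell by 0.26 and 0.33. Cebpa, which myeloid cells also express, rose by 0.93 ± 0.038 in the first comparison (0.62 under quantile normalization), as did Nr1i3, the receptor CAR, by 0.62 ± 0.10, and Nr1i3 fell by 0.75 ± 0.10 in the second.

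The liver lobule runs from portal vein to central vein, and hepatocytes at either end express different enzymes. Of 7 periportal genes 4 fell and 3 rose from wildtype to CD11c-negative NASH cells (median -1.94, or -0.68 with normexp). From CD11c-negative to CD11c-positive cells 1 rose and 6 did not pass. Hal, at -1.94 in the first comparison, and Ass1, at 0.14, are also made by myeloid or other cells. Of 6 pericentral genes 5 rose and 1 fell in the first comparison (median 0.42, or 0.25 under quantile normalization). Among the 5, the rise of Oat turns under quantile normalization. Glul, at 0.45 (0.11 under quantile normalization), is also made by myeloid or other cells. Slc1a2, a glutamate transporter also made by other cells, fell by 1.83 ± 0.052, and Lect2, well above background on 1 of 5 wildtype arrays, rose by 1.67 ± 0.40 (0.65 with normexp), a call lost under 1 alternative. From CD11c-negative to CD11c-positive cells 4 of the 6 fell, Slc1a2 by 1.17 ± 0.052 and Rgn, regucalcin, by 0.56 ± 0.096. The falls of Cyp2e1 (-0.28) and Glul (-0.12) lost their calls under 5 and 3 alternatives. Cps1 and Sds were well above background on at most 3 of 15 arrays, and Cyp1a2, Cyp7a1 and Axin2 on 0.

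**Figure D4:**
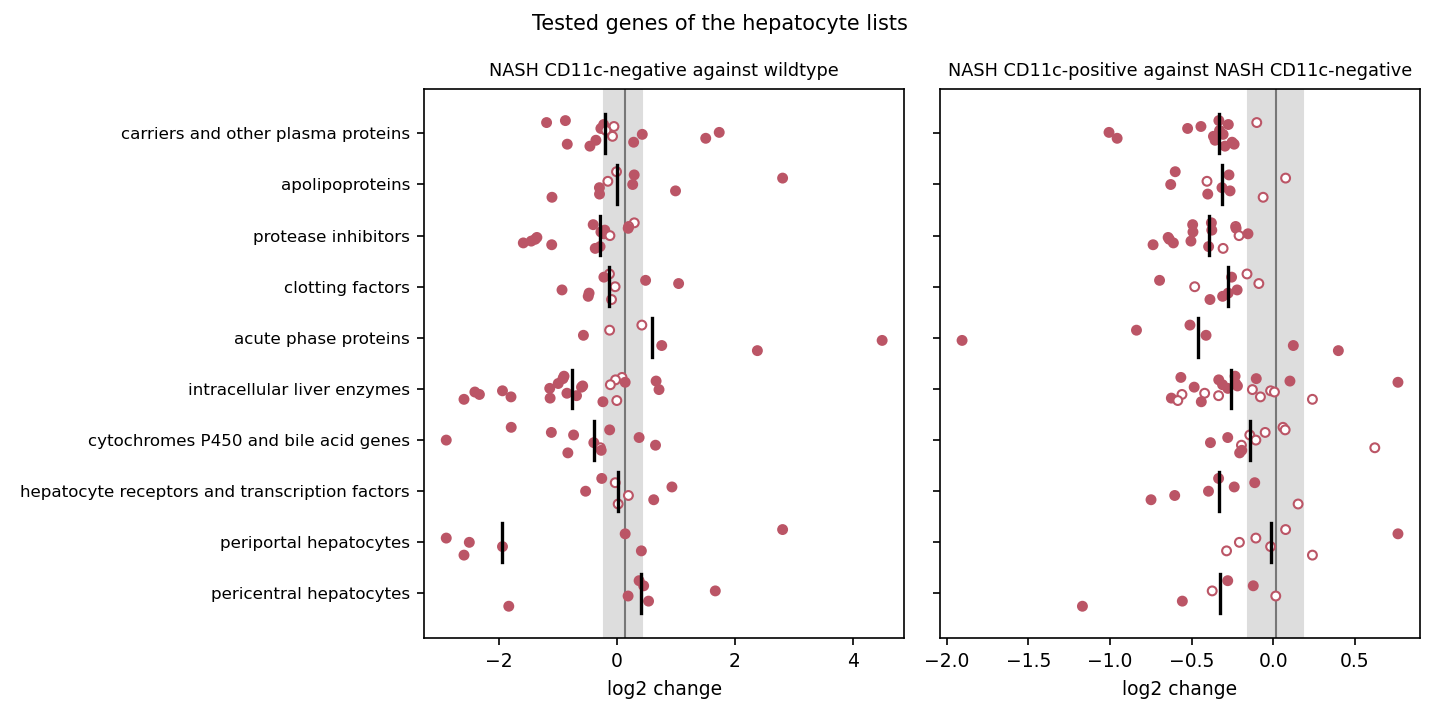
Log2 change (x axis) of each tested gene of the 10 hepatocyte lists (y axis), with filled points for an adjusted p under 0.05, black bars for list medians and a grey band for the quartiles and a grey line for the median of all genes. In the left panel the lists spread to both sides, from Cyp2f2 at -2.89 to Lcn2 at 4.49, and in the right panel 8 of 10 list medians lie between -0.46 and -0.26, under the lower quartile of all genes at -0.15.

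Markers of other cell types moved beside these transcripts. For 15 endothelial genes the summed level relative to the 75th percentile ran from 395 to 430 in wildtype, from 234 to 250 in CD11c-negative NASH and from 161 to 169 in CD11c-positive NASH cells. Of the 15, 13 fell and 2 rose in the first comparison and 11 fell in the second. These and the marker counts that follow stand beside 76.8% and 53.1% of all genes called in the 2 comparisons. For 6 erythroid genes the sums ran from 30.8 to 33.5, from 17.3 to 18.7 and from 5.36 to 5.48, with 5 of 6 lower in both comparisons. Sums of 10 neutrophil genes ran from 415 to 436, from 1583 to 1734 and from 647 to 681, with 9 of 10 higher and then 9 of 10 lower. Of 11 stellate cell genes 7 rose and 3 fell, then 2 rose and 5 fell, with sums of 8.71 to 9.36, 11.97 to 13.1 and 9.22 to 9.63. Of 7 cholangiocyte genes 2 were tested, and both rose in the first comparison. The other 5 did not pass the signal filter. The lists of other cell types were not cleared of genes that macrophages may also make. Of 11 macrophage and Kupffer cell genes 3 rose and 7 fell, and then 2 rose and 9 fell. Their sums also stepped down, from 3250 to 3571, from 2541 to 2785 and from 2142 to 2318. Clec4f, a Kupffer cell lectin, had mean levels of 9.30, 8.08 and 7.29, and Cd5l of 9.77, 9.58 and 9.36. Other markers did not step down across the groups. Adgre1 had mean levels of 7.34, 7.74 and 7.31, Csf1r of 9.29, 9.34 and 8.97, and C1qa of 8.08, 8.38 and 8.20. The part of these cell types in the hepatocyte transcripts was not tested.

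The genes whose profiles lay closest to Alb, Apoa2 and Trf were found by the root mean square difference over the 15 arrays after centring each gene. For Alb they were Otub2 (0.0513), Ccdc148, Gimap8, Gpx2 and Tnfrsf26. For Apoa2 they included Fth1, the ferritin heavy chain (0.0416), Amn1, Atp6v1f and Cryzl1. For Trf they were Ifi204 (0.0310), Actg1, a cytoplasmic actin, Smim26, Neu1 and Ltbr. None of the genes named here is on a hepatocyte list. Those lists hold only 100 of the 13390 genes tested, so their absence among so few neighbours carries little weight.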

How the data were processed

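RNA of 15 samples of liver macrophages was hybridised to 1-colour arrays. Per the file headers and the submitters' processing notes, the deposited scanner files hold spot intensity (processed signal, from Agilent Feature Extraction 10.7.3.1). The deposited table of log2 values matched the processed signal scaled as below and centred on the wildtype median of each probe (median absolute difference 0.00146), and was used as an alternative.

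Control spots (3671 of 62976 per array) and spots marked as outliers (113 to 190 per array) were left out, and 0 were saturated. Repeated spots were averaged, and the 75th percentile of the array's probes was subtracted from log2 signal. Percentile signals were 359 to 562, and 45.8% to 58.0% of spots were well above background. The number of arrays limits the precision. Probes were named by accession through a RefSeq table (26582 of 55681), kept when well above background on at least 4 of 5 arrays of a group, and the brightest stood for a gene, giving 13390 genes (12 with a missing value, fitted without it). Groups were compared in R 4.3.3 with limma 3.58.1 (lmFit, eBayes) on all 15 arrays, without covariates, 2-sided. The script was tested on simulated data.

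The 8 genes, the lists and the tests were chosen with earlier results of these data known. Named are the 8 genes, in each hepatocyte list and comparison the 2 largest changes and the largest opposite one, the 5 genes nearest to Alb, Apoa2 and Trf, and macrophage markers. Cd68 has no named probe and is not analysed here. Serpina1c, Serpina1d, Fgg, Asgr1, Itih4, Slc10a1, Csf1r, C1qa and Cd5l were added after their values were seen. So were Crp, Slc27a5, Cyp2e1, Glul, Hal, the genes not tested and further values of named genes. The list of genes that other cells also make was likewise added then. Some genes under this rule are counted and not reported here. Alternatives were normexp (offset 50), quantile normalization, 2 filters, slide, replicate number, probe averaging, only the groups compared, deposited values and each array left out.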

Additional observations from a re-analysis of the deposited data

Results flagged for a closer look

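In CD11c-positive NASH cells the Ttr level of replicate 1 was 0.33, and the nearest of the other 4 arrays was at 0.47. The gap was 0.7101 of the range of the group, just past the critical value of 0.71 of Dixon's test for 5 arrays. Of 33 sets of 5 arrays examined (11 probes in 3 groups), 1 was marked in this way, and chance marks about 1 in 20.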

How the results depend on the processing

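Over 22 alternatives, 516 of 528 values of the member changes kept their call or stayed without one, and of these 508 also kept their sign. The other 8 are of Apoa1 in CD11c-negative NASH against wildtype cells, which was not called and ran up to 0.03. Of the counts of members 131 of 132 stayed within 1.5 times, as did 131 of 132 over the wider lists. Quantile normalization turned Trf to -0.17 (CD11c-negative NASH against wildtype) and -0.26 (CD11c-positive against wildtype) and Apoa2 to -0.25 in the latter, and left Apoa2 at 0.00 in the former (adjusted p = 1.00), so that 0 members in place of 2 were called higher there. It moved the share of higher among called genes from 62.9% to 49.0% and from 66.2% to 54.4%, and the median of all genes from 0.13 to 0.00 and from 0.16 to 0.05. Averaging probes put Apoa2 at -0.15 in CD11c-positive against wildtype cells. Alb in CD11c-positive against CD11c-negative cells passed with quantile normalization (-0.11), slide as a block (-0.12) and slide 1 alone (-0.13), and was -0.0082 with normexp. It ran from -0.12 to -0.072 with 1 array left out and passed only without CD11c-negative replicate 3 (-0.12, adjusted p = 0.0401). Ttr in that comparison did not pass with normexp (-0.19), and on slide 1 alone 2 wider list genes were higher in place of 4. The causes were not tested. The lower bounds hold for the reported processing only.

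Samples with the same replicate number correlated from -0.198 to 0.373 (median 0.234 over 15 pairs of residuals over all genes), other pairs from -0.352 to 0.327 (median -0.09). Pairs on the same slide had a median of 0.196 and pairs on different slides of -0.184. The lowest correlation on the same slide was 0.008 and the highest on different slides was -0.004. The sign therefore followed the slide and cannot decide whether samples of the same number are pairs. The reported fit did not take the numbers as pairs, although 9 of 15 arrays were closest to one of their own number. With the replicate block the count of members lower in CD11c-positive against CD11c-negative cells was 8 in place of 7, with Alb at -0.10 (adjusted p = 0.0263), and with replicate block and slide together, chosen after seeing the data, Alb was at -0.13. The other members' calls were the same with the block. Low signal limits the genes under background, for which only bounds can be given.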
